A study of Homo sapiens with 8 samples.

Results

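The cholesterol synthesis genes HMGCS1, IDI1, FDFT1, SQLE and DHCR7, and the sterol-sensing regulators INSIG1 and SREBF2, were followed in human MCF-10A cells. They were taken by gene symbol, with earlier results of these data known, and are 7 of the 60617 genes in the deposited count table. None of the 7 is a receptor for cholesterol uptake. MCF-10A is an established, non-tumorigenic line of human breast epithelium. The series set out to compare how transformed cells respond to JG-98, an inhibitor of Hsp70 chaperones. RNA sequencing of poly(A)-selected RNA covered 4 groups of 2 libraries each: untreated Empty cells, Empty cells after 12 h in 1 µM JG-98, untreated NeuT cells, and NeuT cells after the same treatment. Every group was MCF-10A, grown in the same medium with horse serum, epidermal growth factor, hydrocortisone, insulin and cholera toxin. What distinguishes NeuT from Empty cells is not written out in the labels, nor is whether either line is a clone. The controls are given as untreated, with no mention of a vehicle. Nothing says that the 2 libraries of a group came from separate cultures, so p-values measure the spread between these libraries, which may be technical.

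Cells build cholesterol from acetyl-CoA through mevalonate, isoprenoid units, squalene and a series of sterols. Transcription of these enzymes is governed by SREBP2, a membrane-bound factor that is cut free in the Golgi when sterols in the endoplasmic reticulum are low and then binds sterol regulatory elements together with the factors NF-Y and Sp1. INSIG proteins hold SREBP2 and its escort SCAP in the endoplasmic reticulum when sterols are plentiful. HMGCS1 makes HMG-CoA at the start of the pathway, IDI1 interconverts the isoprenoid building blocks, and FDFT1 (squalene synthase) joins farnesyl units into squalene. SQLE (squalene epoxidase) adds the oxygen that precedes ring closure, and DHCR7 reduces a sterol precursor to cholesterol. INSIG1 is both a brake on SREBP2 and a target of it, and SREBF2 encodes SREBP2 itself.

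Promoter sequences were at hand for 5 of the 7 genes, with 9 start sites in all, from RefSeq on GRCh38.p14. Each covers 250 bases before to 50 after a start. They were searched on both strands for the classical sterol regulatory element (the first run of capitals in the SREBF2 line), a looser form of it TCACNCCAC (which also matches within the classical form), the E-box CACGTG, the NF-Y box CCAAT and the Sp1 box GGGCGG. Upstream stretches of 3 genes are shown because they belong to the gene of the factor itself, to its sterol-regulated brake and to an enzyme that differed between groups below. Each is the 100-base stretch, over all starts of its gene and clear of protein-coding exons, that held the most matches. How densely they are marked follows from that choice. The HMGCS1 stretch lies at start 1 of 2, and start 2 held 0 NF-Y boxes. Capitals mark the motif matches, which read reversed and complemented where they lie on the other strand (ATTGG for the NF-Y box, CCGCCC for the Sp1 box). All 3 stretches lie upstream of the gene's annotated extent in the count table, and each is written 5′ to 3′ on the gene's strand.
SREBF2, chr22:41832904-41833003, plus strand: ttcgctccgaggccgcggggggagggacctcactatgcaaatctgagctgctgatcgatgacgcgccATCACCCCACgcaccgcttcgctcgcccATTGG
INSIG1, chr7:155297663-155297762, plus strand: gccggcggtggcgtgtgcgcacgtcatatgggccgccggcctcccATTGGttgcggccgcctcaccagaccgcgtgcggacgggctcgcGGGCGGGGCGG
HMGCS1, chr5:43313541-43313640, minus strand: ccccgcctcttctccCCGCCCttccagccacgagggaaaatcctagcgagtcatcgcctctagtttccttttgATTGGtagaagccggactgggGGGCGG

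SREBF2 held the classical sterol regulatory element from -134 to -125 relative to its start, with an NF-Y box from -106 to -102. That classical form occurred in 16 of 35116 RefSeq promoters of this length (0.0456%), and the looser form in 396 (1.13%). INSIG1 held an E-box from -55 to -50, a motif present in 7.26% of promoters. NF-Y boxes, present in 34.6% of promoters, and Sp1 boxes, present in 45%, occurred in at least 1 promoter of each of the 5 genes. These matches are letters in a window and say nothing about binding in these cells.

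**Figure D1:**
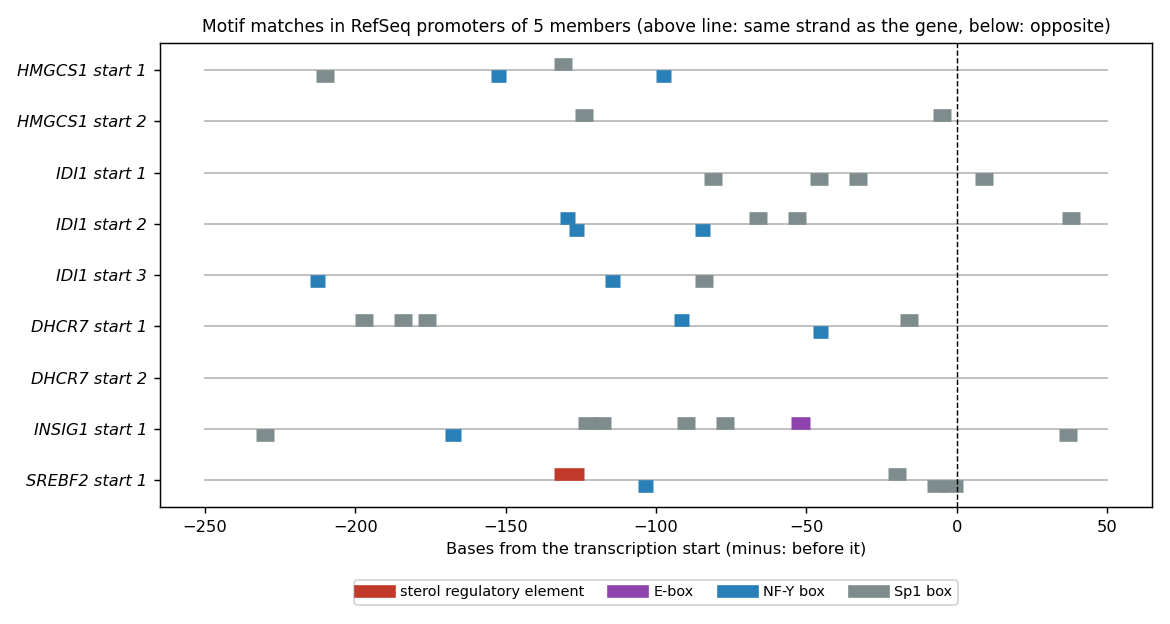
Motif matches along 9 RefSeq promoters of 5 genes, by distance in bases from the transcription start, with matches on the gene's own strand above each line and the others below. Among these promoters the classical sterol regulatory element lies in that of SREBF2, and the E-box in that of INSIG1, while Sp1 and NF-Y boxes recur.

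Libraries held 55050996 to 56861971 counts, except Empty treated replicate 1 with 37341458. Every one of the 7 genes passed the filter on low counts, with 3981 to 51166 counts per library, so counting error alone leaves little uncertainty in them. Epithelial markers (KRT5, KRT14, KRT17, TP63, CDH1, EPCAM) summed to between 15041 and 16458 CPM (counts relative to the library size, scaled by TMM) over all libraries. The 9 markers of leukocytes, endothelium, fibroblasts and adipocytes summed to between 20.0 and 23.2 CPM in Empty libraries and between 75.7 and 92.2 in NeuT libraries. Without DCN, a fibroblast proteoglycan gene, they summed to at most 20.7 and 15.4 CPM. Besides DCN, the endothelial PECAM1 at 398 to 879 counts per library and the fibroblast COL1A1 at 218 to 319 were detected throughout. VWF, COL1A2 and PLIN1 had 2 to 18 counts per library, PTPRC 0 to 4, CD3E 0 to 2 and ADIPOQ 0, where a count of 0 allows up to 3 counts for counting error. The luminal receptor genes ESR1 and PGR together reached 11.3 to 15.0 CPM, nearly all of it from ESR1. PGR had 0 to 5 counts per library and did not pass the filter.

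All 7 genes were expressed above most genes, at percentiles from 90.6 to 98.6 of the RPKM of genes tested in untreated Empty cells. Divided by gene length (RPKM, TMM-scaled), their levels in untreated Empty cells ran from FDFT1 at 150.9 ± 3.4 (SD, n = 2) through SQLE at 86.2 ± 0.52 and DHCR7 at 62.3 ± 0.45. IDI1 at 39.8 ± 1.9 and SREBF2 at 38.7 ± 0.89 followed, and their libraries overlapped. INSIG1 at 29.9 ± 1.1 and HMGCS1 at 29.3 ± 0.68 stood last and overlapped as well. The order of means was the same in treated Empty and untreated NeuT cells. In treated NeuT cells SREBF2 at 39.9 ± 2.5 stood above IDI1 at 37.2 ± 0.96, with no overlap. Antisense or neighbouring genes share 37.7% of the exonic bases of HMGCS1, 14.8% of IDI1, 4.18% of FDFT1 and 3.71% of SREBF2. The use of strand in counting is not given in the sources used here, so reads from those partners cannot be told apart.

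**Figure D2:**
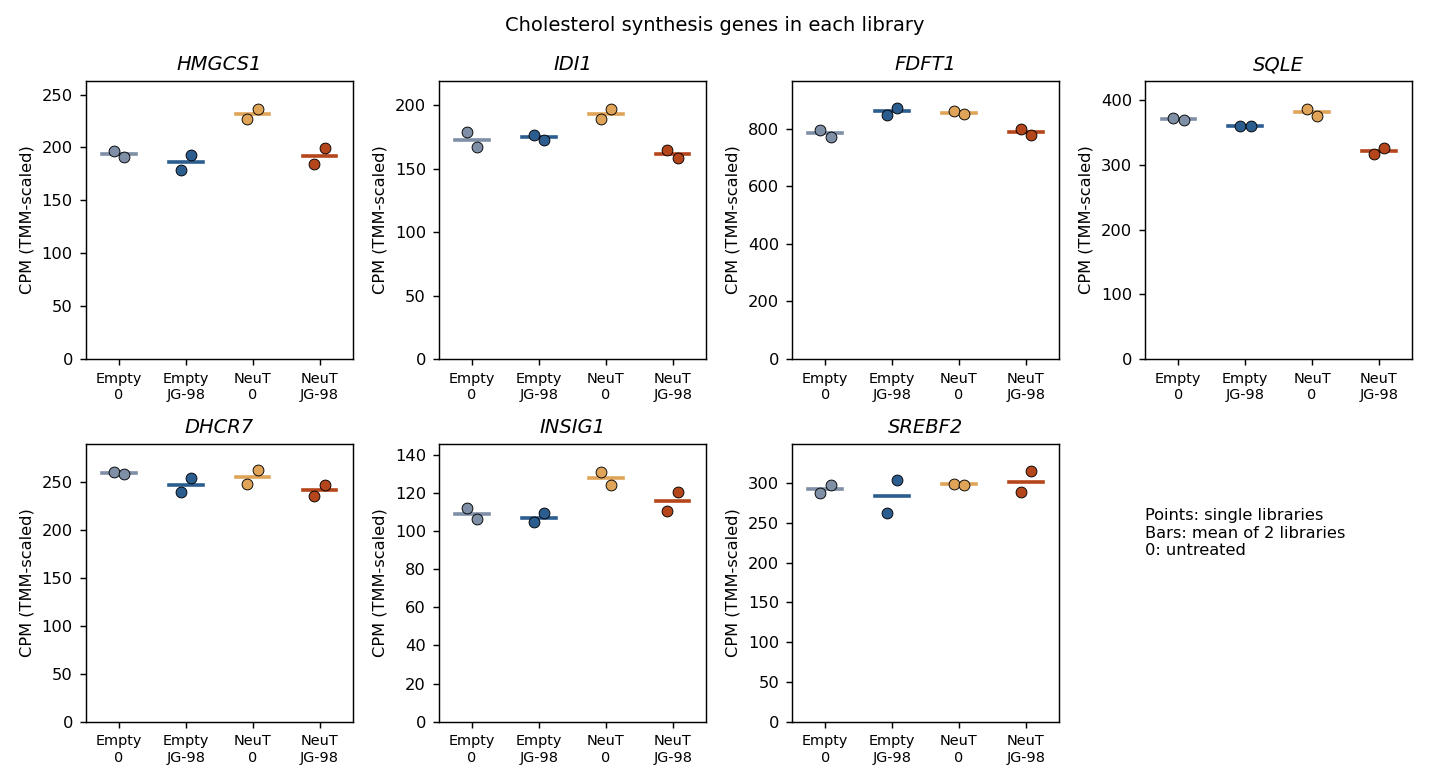
TMM-scaled CPM of the 7 genes in each of the 8 libraries (points) with the mean of the 2 libraries of a group (bars), on axes that start at 0. The treated NeuT libraries of SQLE (316 and 327 CPM) lie below all others, and those of HMGCS1 and IDI1 below the untreated NeuT libraries.

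In NeuT cells 3 of the 7 genes, all of them enzymes, fell after JG-98: HMGCS1, IDI1 and SQLE, by 15.8% to 17.1%. In these tests a gene is said to rise or fall where the Benjamini-Hochberg adjusted p over 17693 genes was under 0.05 in edgeR's quasi-likelihood test. Of all genes tested, 1.01% fell in this comparison. In bulk RNA, fewer cells of a type and less RNA per cell cannot be told apart.

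HMGCS1, the HMG-CoA synthase (chromosome 5, 43287470 to 43313512, minus strand), stood at 227 and 236 CPM in the untreated NeuT libraries and at 184 and 199.8 CPM in the treated ones. The groups did not overlap, and the untreated NeuT values were the highest of its 8 libraries. In Empty cells it read 197 and 191 CPM untreated and 179 and 193 CPM treated, with overlap. Its log2 fold change with JG-98 in NeuT was -0.27 (SE 0.059, 95% interval -0.39 to -0.15, edgeR adjusted p = 0.0179). In Empty cells it was -0.061 (SE 0.059, interval -0.19 to 0.064, edgeR adjusted p = 0.797).

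IDI1, the isopentenyl diphosphate isomerase (chromosome 10, 1039152 to 1049170, minus strand), read 189 and 197 CPM in untreated NeuT and 164 and 159 CPM in treated NeuT. Those treated values were the lowest of its 8 libraries. The untreated Empty libraries read 179 and 167 CPM and the treated ones 177 and 173 CPM, so the Empty groups overlapped. The log2 fold change was -0.26 in NeuT (SE 0.056, interval -0.37 to -0.14, edgeR adjusted p = 0.0173) and 0.017 in Empty (SE 0.056, interval -0.10 to 0.13, edgeR adjusted p = 0.960). The 3 named IDI1 pseudogenes had 0 counts in every library.

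SQLE, the squalene epoxidase (chromosome 8, 124998497 to 125022283, plus strand), read 387 and 376 CPM in untreated NeuT and 316 and 327 CPM in treated NeuT. Its 4 Empty libraries lay close together, at 373 and 369.6 CPM untreated and 360.2 and 361 CPM treated. JG-98 changed it by -0.25 on the log2 scale in NeuT (SE 0.050, interval -0.35 to -0.14, edgeR adjusted p = 0.0117). In Empty the difference was -0.042 (SE 0.050, interval -0.15 to 0.064, edgeR adjusted p = 0.855).

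FDFT1, the squalene synthase (chromosome 8, 11795573 to 11839304, plus strand), had differences of opposite sign in the lines, and neither passed the test. It read 797 and 771 CPM in untreated Empty and 849 and 872 CPM in treated Empty, which differ by 0.13 on the log2 scale (SE 0.050, edgeR adjusted p = 0.341). In NeuT it read 860.5 and 849 CPM untreated and 799 and 778 CPM treated, which differ by -0.12 (SE 0.050, edgeR adjusted p = 0.255). The treated and untreated libraries did not overlap in either line.

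DHCR7, which carries out the closing reduction to cholesterol (chromosome 11, 71428193 to 71452868, minus strand), read 248 and 262 CPM in untreated NeuT and 235 and 247 CPM in treated NeuT. In Empty cells it read 260.4 and 258 CPM untreated and 239 and 254 CPM treated. The differences were -0.081 in NeuT (SE 0.055, edgeR adjusted p = 0.529) and -0.072 in Empty (SE 0.055, edgeR adjusted p = 0.729), and did not pass the test. Leaving out each library in turn, they ran from -0.13 to -0.046 in NeuT and from -0.12 to -0.028 in Empty, with the extremes without treated replicate 2 and treated replicate 1 of the line.

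Of the regulators, INSIG1 (chromosome 7, 155297776 to 155310235, plus strand) read 131 and 124 CPM in untreated NeuT and 110.4 and 121 CPM in treated NeuT. Its difference of -0.14 did not pass the test (SE 0.061, interval -0.27 to -0.015, edgeR adjusted p = 0.255), and it was -0.084 without NeuT treated replicate 1 and -0.22 without replicate 2. In Empty cells the libraries overlapped, at 112 and 106 CPM untreated and 104 and 109 CPM treated (log2 difference -0.027, edgeR adjusted p = 0.938). SREBF2 (chromosome 22, 41833079 to 41907307, plus strand), the gene with the classical element shown above, read 299 and 298 CPM in untreated NeuT and 288 and 315 CPM in treated NeuT. Its Empty libraries read 288 and 298 CPM untreated and 263 and 304 CPM treated. Treated and untreated libraries of SREBF2 overlapped in both lines, with log2 differences of 0.015 in NeuT (interval -0.12 to 0.16, edgeR adjusted p = 0.947) and -0.045 in Empty (interval -0.18 to 0.095, edgeR adjusted p = 0.887). With 2 libraries a group, differences of SREBF2 within those intervals are not excluded.

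Counted together, 6 of the 7 genes had both treated NeuT libraries below both untreated ones, where 22.9% of all genes did. The median log2 difference of the 7 genes in NeuT was -0.14, beside 0.00021 over all genes tested. Against the untreated mean, NeuT treated replicate 1 had all 7 genes lower (median -0.21) and replicate 2 had 6 of 7 lower (median -0.14). In Empty cells 0 of the 7 genes passed the edgeR test, where 0.339% of all genes did. There 1 of the 7, FDFT1, had an unadjusted p under 0.05, which is near the 9.83% of all genes that did, and DESeq2 and limma-voom also called 0. Treated and untreated Empty libraries did not overlap for FDFT1, higher (20.9% of all genes), or for SQLE and DHCR7, lower (22.2% of all genes). The median of the 7 in Empty was -0.042.

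**Figure D3:**
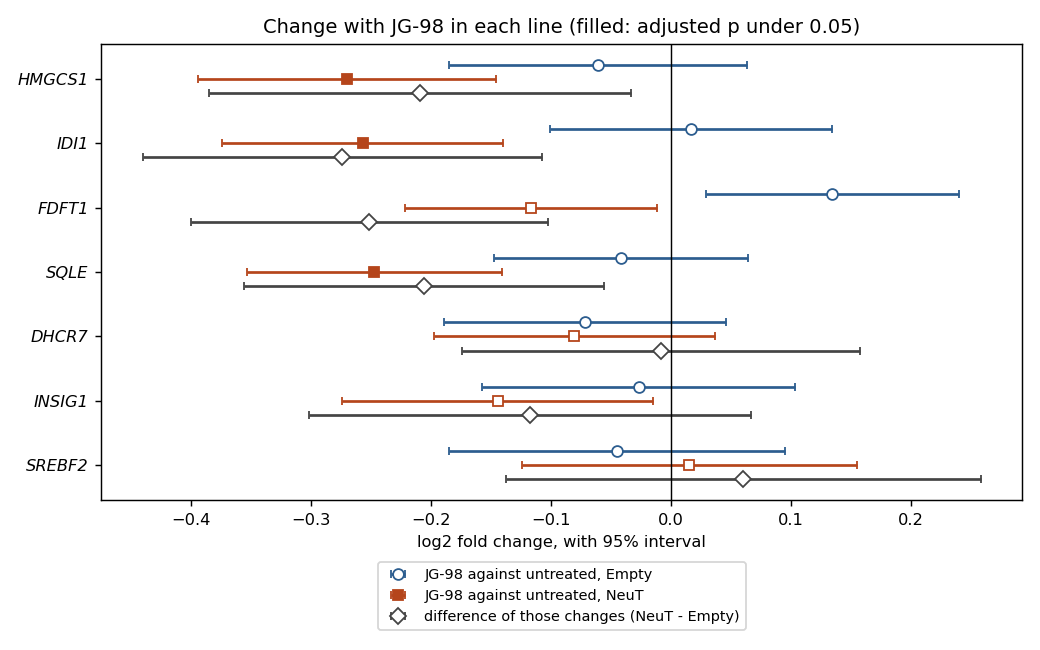
Log2 fold change with JG-98 in Empty (circles) and NeuT (squares) and the difference between those changes (diamonds) for the 7 genes, with 95% intervals from edgeR. HMGCS1, IDI1 and SQLE in NeuT are the filled points (-0.27, -0.26 and -0.25), and no point in Empty and no diamond is filled.

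The calls of these 3 falls in NeuT were lost without either untreated NeuT library, where the calls over all genes also dropped, from 533 to 132 without replicate 1 and 143 without replicate 2. Without NeuT untreated replicate 1 the log2 changes of HMGCS1, SQLE and IDI1 were -0.30, -0.23 and -0.29 with edgeR adjusted p of 0.119, 0.182 and 0.103, and without replicate 2 they were -0.25, -0.28 and -0.23 with edgeR adjusted p of 0.256, 0.107 and 0.252. With only the 4 NeuT libraries in the fit, the edgeR adjusted p were 0.0945, 0.0932 and 0.0907, and 185 of all genes were called. For NeuT, the authors' deposited table gave log2 fold changes of -0.27 for HMGCS1, -0.26 for IDI1 and -0.25 for SQLE, with adjusted p of 0.0225, 0.0201 and 0.0105. For Empty, FDFT1 had the largest difference of the 7 in the authors' deposited table, 0.13, with an adjusted p of 0.308.

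Whether JG-98 acted differently in the lines was asked with the interaction of line and drug. None of the 7 genes passed that test in edgeR, DESeq2 or limma-voom, where edgeR called 1 of 17693 genes (0.00565%). At an unadjusted p under 0.05 there were 4 of the 7, and 7.79% of all genes. The difference between the drug changes (NeuT minus Empty, log2) was -0.27 for IDI1 (interval -0.44 to -0.11, edgeR adjusted p = 0.490) and -0.25 for FDFT1 (interval -0.40 to -0.10, edgeR adjusted p = 0.461). For HMGCS1 and SQLE it was -0.21 each (edgeR adjusted p = 0.571 and 0.516), and for INSIG1 -0.12 (edgeR adjusted p = 0.766). DHCR7 at -0.0087 (interval -0.17 to 0.16) and SREBF2 at 0.060 (interval -0.14 to 0.26) lay nearest to 0. Without NeuT treated replicate 1, IDI1 (-0.31, edgeR adjusted p = 0.0138) and FDFT1 (-0.28, edgeR adjusted p = 0.00947) passed, among 777 of all genes that did at that setting. That library and its replicate differed more than those of any other group, with a chi-square per gene of 22.0 against 4.52 to 8.20.

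Averaged over the lines with equal weight, HMGCS1 and SQLE, 2 of the 7 genes, fell after JG-98, where 1.58% of all genes fell. HMGCS1 changed by -0.17 (SE 0.042, edgeR adjusted p = 0.0319) and SQLE by -0.14 (SE 0.035, edgeR adjusted p = 0.0286). IDI1 stood at -0.12 (SE 0.039, edgeR adjusted p = 0.108). The values behind these averages were -0.27 in NeuT and -0.061 in Empty for HMGCS1, and -0.25 and -0.042 for SQLE. Neither call held without either untreated library of either line or without Empty treated replicate 1 (edgeR adjusted p from 0.112 to 0.201 for HMGCS1 and from 0.0917 to 0.190 for SQLE). Without Empty treated replicate 2, SQLE had an edgeR adjusted p of 0.0686. Without NeuT treated replicate 1, IDI1 passed at -0.13 (edgeR adjusted p = 0.0181).

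Before any drug, 3 of the 7 genes were higher in NeuT than in Empty cells: HMGCS1, INSIG1 and IDI1. The lines differed in many genes, with 21.2% of all genes higher and 42.0% different in either direction. HMGCS1 was higher by 0.26 (SE 0.059, edgeR adjusted p = 0.00196), INSIG1 by 0.23 (SE 0.061, edgeR adjusted p = 0.0063) and IDI1 by 0.16 (SE 0.055, edgeR adjusted p = 0.0285). FDFT1 at 0.12 (SE 0.050, edgeR adjusted p = 0.0534) did not pass, nor did SQLE (0.040), SREBF2 (0.028) or DHCR7 (-0.024). Both untreated NeuT libraries lay above both untreated Empty ones for 6 of the 7 genes, DHCR7 excepted, where 36.1% of all genes did. The NeuT libraries also held DCN at 72.6 ± 4.4 CPM against 3.38 ± 0.27 in Empty, and the epithelial markers differed in both directions: EPCAM (-1.07) and KRT17 (-0.35) were lower in NeuT, TP63 (1.45), KRT5 (0.54) and CDH1 (0.22) higher, and KRT14 (-0.12) did not pass (edgeR adjusted p = 0.0703). The part of these marker differences in the results was not tested. Without Empty untreated replicate 2, INSIG1 and IDI1 no longer passed (edgeR adjusted p = 0.0987 and 0.289). The same held without NeuT untreated replicate 1 (0.0781 and 0.0501), and for IDI1 without NeuT untreated replicate 2 (0.158) and with library totals unscaled (0.091, edgeR adjusted p = 0.203). FDFT1 was at 0.056 with library totals unscaled (edgeR adjusted p = 0.390) and did not pass without a filter (edgeR adjusted p = 0.0898), but passed in 7 other ways of fitting, with edgeR, DESeq2 or limma-voom adjusted p from 0.0013 to 0.0479, and without NeuT treated replicate 1 (0.0045) or 2 (0.00469). It did not pass when any other library was left out (edgeR adjusted p from 0.0557 to 0.308). The untreated NeuT libraries enter this comparison and the drug comparison in NeuT with opposite signs, so the values of the 2 comparisons are not independent.

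With JG-98 present, SQLE was the 1 gene of 7 that differed, lower in NeuT (log2 difference -0.17, SE 0.050, edgeR adjusted p = 0.0133), where 20.0% of all genes were lower. IDI1 (-0.11, edgeR adjusted p = 0.114) and FDFT1 (-0.13, edgeR adjusted p = 0.0511) lay below 0 and did not pass. HMGCS1 (0.047, edgeR adjusted p = 0.568), which was higher in NeuT without drug, and INSIG1 (0.11, edgeR adjusted p = 0.169) did not pass either. SREBF2 at 0.089 and DHCR7 at -0.033 completed the set. The SQLE call was lost without Empty treated replicate 2 (edgeR adjusted p = 0.0511) and with only the 4 treated libraries (0.0883). FDFT1 passed with limma-voom (adjusted p = 0.0305), DESeq2 (adjusted p = 0.0427), a non-robust fit (edgeR adjusted p = 0.0422) and the replicate number as a block (edgeR adjusted p = 0.0452), with library totals unscaled (-0.20, edgeR adjusted p = 0.0032), where IDI1 passed too (-0.19, edgeR adjusted p = 0.011), and without NeuT treated replicate 1 (edgeR adjusted p = 0.024), where INSIG1 passed too (0.18, edgeR adjusted p = 0.0175). Without Empty treated replicate 2, SREBF2 passed at 0.20 (edgeR adjusted p = 0.0355).

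A further 15 enzymes of the pathway, listed by function, were counted in the same way. With JG-98 in NeuT, 14 of the 15 had a log2 difference below 0, and 1, MVD, fell, where 1.01% of all genes did. Their median was -0.14, and 10 of them had both treated libraries below both untreated ones, where 22.9% of all genes did. MVD, which makes isopentenyl diphosphate, read 190.4 and 196 CPM untreated and 159 and 160.4 CPM treated in NeuT (-0.28, SE 0.060, edgeR adjusted p = 0.0182). In Empty it read 184 and 173 CPM untreated and 177 and 197 CPM treated (log2 difference 0.069). MVK, the mevalonate kinase, was at -0.26 (SE 0.073, edgeR adjusted p = 0.0638) and HSD17B7, a sterol reductase, at -0.24 (SE 0.095, edgeR adjusted p = 0.208) in NeuT. HSD17B7 has 2 named pseudogenes whose counts came to 24.4% of its own, so its value is uncertain. The count called among the 15 was 0 without either untreated NeuT library and 3 without NeuT treated replicate 1 (for MVD, edgeR adjusted p = 0.130 and 0.235, and 0.00423), where the calls over all genes moved from 533 to 132 and 143, and to 2133. The MVD call was also lost with only the libraries compared (edgeR adjusted p = 0.0644).

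In Empty cells 0 of the 15 enzymes passed in edgeR, DESeq2 or limma-voom, 1 had an unadjusted p under 0.05 (9.83% of all genes), and their median was -0.0084. The enzymes with the largest differences there were LSS, which closes the sterol ring, at -0.22 (SE 0.15, edgeR adjusted p = 0.706), the sterol oxidase MSMO1 at 0.14 (SE 0.051, edgeR adjusted p = 0.336) and the sterol demethylase CYP51A1 at -0.11 (SE 0.11, edgeR adjusted p = 0.810). Other genes overlap 84.5% of the exonic bases of CYP51A1, and its 3 named pseudogenes held 11125 counts against 5325 of its own, which makes its value uncertain. With the 5 enzymes among the 7 genes, 19 of 20 enzymes lay below 0 in NeuT, as did 8836 of the 17693 genes tested, and 4 of the 20 were called lower, where 1.01% of all genes were. Their median was -0.15. In Empty 12 of 20 lay below 0, as did 9004 of all genes, 0 were called, and the median was -0.017. The interaction was below 0 for 17 of the 20, as for 8843 of all genes, and passed for 0. Its largest values among the 15 were MVD at -0.34 (SE 0.085, edgeR adjusted p = 0.349), HSD17B7 at -0.27 (edgeR adjusted p = 0.657) and MSMO1 at -0.23 (edgeR adjusted p = 0.490).

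**Figure D4:**
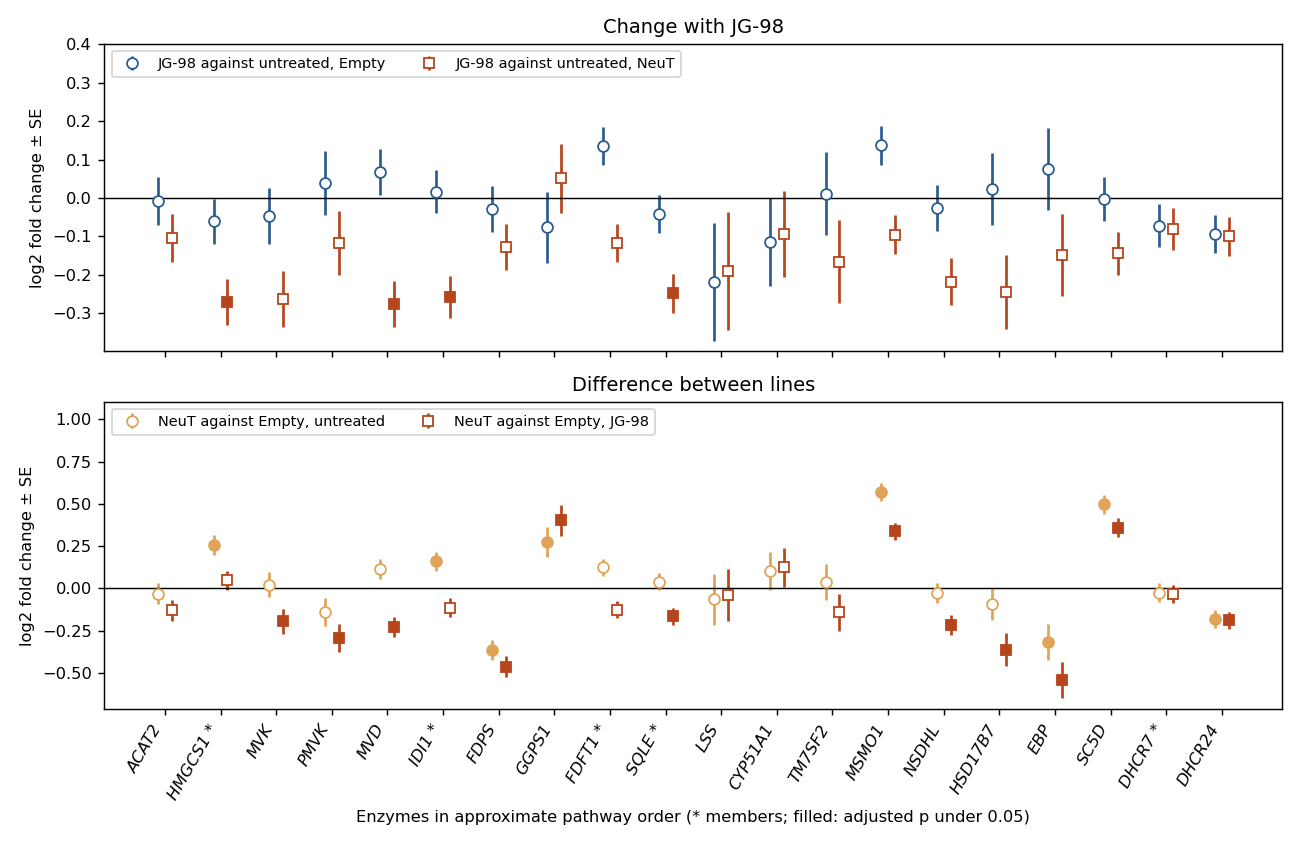
Log2 fold change ± SE for 20 enzymes in approximate pathway order, with JG-98 in each line (upper panel) and between the lines without and with the drug (lower panel). Filled points have an edgeR adjusted p under 0.05: 4 enzymes with JG-98 in NeuT, none in Empty, and enzymes on both sides of 0 between the lines.

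Between the lines without drug, 3 of the 15 enzymes were higher in NeuT and 3 lower, where 21.2% and 20.8% of all genes were. MSMO1 was higher by 0.57 (SE 0.050, edgeR adjusted p = 9.1e-08), from 219.9 ± 2.1 to 326.5 ± 1.9 CPM (SD, n = 2 libraries each). SC5D, a sterol desaturase, was higher by 0.50 (SE 0.056, edgeR adjusted p = 1.7e-06). FDPS, the farnesyl diphosphate synthase, was at -0.36 (SE 0.060, edgeR adjusted p = 9.8e-05). With JG-98 present, 3 were higher and 8 lower, where 21.7% and 20.0% of all genes were. EBP, a sterol isomerase, was at -0.54 (SE 0.11, edgeR adjusted p = 0.00143), FDPS at -0.46 (SE 0.060, edgeR adjusted p = 7.8e-06), and GGPS1, which makes geranylgeranyl diphosphate, at 0.40 (SE 0.091, edgeR adjusted p = 0.00168). Without Empty treated replicate 2 the 11 calls under the drug became 5, and the 6 without drug became 3 without Empty untreated replicate 1 or NeuT untreated replicate 2. Other genes overlap 36.4% of the exonic bases of EBP and 41% of those of GGPS1.

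Sterol sensing, transport and storage were followed in a list of 18 genes. With JG-98 in NeuT, 1 of the 18 fell, where 1.01% of all genes did: TMEM97, the sigma-2 receptor gene linked to cholesterol trafficking, fell from 52.2 ± 0.73 to 41.9 ± 5.6 CPM (SD, n = 2 libraries each, log2 change -0.32, SE 0.079, edgeR adjusted p = 0.0372). That call held without NeuT treated replicate 1 (-0.46, edgeR adjusted p = 5.2e-05), was lost when any other of the 8 libraries was left out (edgeR adjusted p from 0.0547 to 0.300), and was -0.20 without NeuT treated replicate 2. The TMEM97 call was also lost with library totals unscaled (edgeR adjusted p = 0.0507), a non-robust fit (0.0557) and only the libraries compared (0.144). Other genes overlap 12.3% of its exonic bases. NPC1, the lysosomal cholesterol exporter, read 72.6 and 73.9 CPM untreated and 84.6 and 115 CPM treated in NeuT, and its difference did not pass (0.44, SE 0.11, edgeR adjusted p = 0.0664). Nor did ABCG1, another sterol exporter (0.83, SE 0.60, edgeR adjusted p = 0.557), or MYLIP, a ubiquitin ligase induced by sterols (-0.32, SE 0.28, edgeR adjusted p = 0.641). In Empty cells 0 of the 18 passed in edgeR, with 2 at an unadjusted p under 0.05 (9.83% of all genes). The sterol exporter ABCA1 differed by 1.51 there (SE 0.56, edgeR adjusted p = 0.341) on 4 counts in each untreated and 6 and 14 counts in the treated libraries, too few to read a size from. ABCG1 (0.89, SE 0.69, edgeR adjusted p = 0.730) and NPC2, a lysosomal sterol carrier (0.13, SE 0.062, edgeR adjusted p = 0.510), did not pass either.

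Between the untreated lines, 7 of these 18 genes were higher and 2 lower in NeuT, where 21.2% of all genes were higher and 20.8% lower. INSIG2, the partner gene of INSIG1, read 15.6 ± 0.54 CPM in Empty and 31.5 ± 1.6 CPM in NeuT (SD, n = 2 libraries each, log2 difference 1.02, SE 0.078, edgeR adjusted p = 1.6e-08). ABCA1 had 89 and 70 counts in untreated NeuT against 4 in each untreated Empty library (edgeR adjusted p = 3.2e-07), and with so few counts in Empty the fitted log2 difference of 4.33 (SE 0.43) is no measure of its size. ABCG1 had 2 to 28 counts in a library and did not pass (0.84, SE 0.68, edgeR adjusted p = 0.351). With the drug, 10 were higher and 3 lower in NeuT, where 21.7% and 20.0% of all genes were, among them INSIG2 at 0.96 (edgeR adjusted p = 3.4e-08), ABCA1 at 3.12 (edgeR adjusted p = 2.4e-06, on 80 and 114 counts against 6 and 14) and TMEM97 at -1.0 (SE 0.079, edgeR adjusted p = 2.4e-08).

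Across the 8 libraries the 7 genes did not all vary together. HMGCS1 and INSIG1 were most alike (Pearson r = 0.896 of log2 CPM), followed by SQLE and IDI1 (r = 0.780). SREBF2 had r of -0.20 with both IDI1 and FDFT1 and -0.11 with SQLE. With INSIG1, HMGCS1 and DHCR7 its r was 0.530, 0.462 and 0.401. The 8 libraries include 4 groups, so these correlations mix differences between groups with those between replicates, and they are descriptions only. Of 13060 other genes averaging 50 counts or more, those most like the mean profile of the 7 were NUMBL (r = 0.967), KIAA0930 (0.965), FBXO16 (0.960), SLC27A4 (0.954) and CDC42P6 (0.947), each over the same 8 libraries.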

How the data were processed

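The authors deposited raw counts per gene for 8 libraries in featureCounts layout, per the file headers. Trim Galore 0.5.0, FastQC 0.11.7, HISAT2 2.1.0, SAMtools 1.9, featureCounts 1.6.3, limma and GRCh38 are named in the submitters' processing notes. The annotation release, the strand setting and what was done with multi-mapping reads are not given in the sources used here. Each line also has the authors' deposited table of log2 fold changes, test scores and p-values, raw and adjusted. Columns were matched to samples by name, and 0 sample columns were unmatched. Symbols were found for 60261 of 60617 identifiers.

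The deposited counts went unchanged into edgeR 4.0.16 (R 4.3.3). The filter filterByExpr (minimum count 10, minimum total 15) left 17693 genes, and libraries were scaled by TMM. All 8 libraries entered a robust quasi-likelihood fit of 4 group means, and p-values were adjusted over all genes tested. Standard errors are the log2 fold change divided by the square root of F. DESeq2 1.42.0 and limma-voom (limma 3.58.1) were alternatives, beside other scalings, filters, fits of only the libraries compared, a replicate block and leaving out each library. The script was tested on simulated counts. Coordinates of genes are those of the count table, 1-based. With 2 libraries a group, an exact permutation test could not reach 0.05, so every test rests on a spread shared over genes.

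The rule named all 7 genes, the list genes called with JG-98, and otherwise the 3 with the largest differences in a comparison. For the averages over lines, and for the sterol handling and fatty acid lists outside the drug comparisons in each line, the text gives only some of the latter. The genes and lists were chosen with earlier results of these data known. Some genes of this pathway are not reported here.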

Additional observations from a re-analysis of the deposited data

How the results depend on the processing

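Every result rests on 2 libraries a group, which limits the size of change that could be detected. The count of the 7 genes called with JG-98 in NeuT was 3, and 0 with only the libraries compared. Among the 15 other enzymes it was 1 there, 3 without a filter, 3 with DESeq2 and 0 with only the libraries compared, where calls over all genes were 533, 1000, 722 and 185. Without a filter 2 of the 15 were called on average over lines (1142 of all genes, against 702) and 1 in the interaction (138 against 1). Under JG-98, the count of the 7 differing between lines was 3 with unscaled total counts, 2 with DESeq2, limma-voom, a non-robust edgeR fit or the replicate block, and 0 with only the libraries compared. The causes were not tested. With unscaled total counts SQLE (-0.029) and SREBF2 (-0.041) turned below 0 between untreated lines, as did HMGCS1 (-0.029) between treated lines. That scaling moves the median of all genes to -0.084 between untreated and -0.076 between treated lines.

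Leaving out each library in turn gave 0 to 3 of the 7 called in NeuT, 0 to 3 on average, 0 to 2 in the interaction, 1 to 4 between untreated and 1 to 3 between treated lines, and 0 in Empty. Calls over all genes ran from 132 to 2133, 259 to 1934, 1 to 777, 5461 to 8218, 5951 to 7409 and 9 to 417 in that order. For the 15 it gave 0 to 3, 0 to 1, 0 to 1, 3 to 6 and 5 to 11 in the same order. Small differences changed sign. In Empty, IDI1 ran from -0.031 to 0.065, INSIG1 from -0.065 to 0.011 and SREBF2 from -0.16 to 0.056. SREBF2 ran from -0.058 to 0.076 in NeuT, -0.071 to 0.036 on average, -0.041 to 0.17 in the interaction and -0.013 to 0.20 between treated lines. FDFT1 on average ran from -0.0035 to 0.021, and HMGCS1 between treated lines from -0.012 to 0.11. DHCR7 ran from -0.059 to 0.039 in the interaction, -0.048 to 0.028 between untreated and -0.077 to 0.014 between treated lines. Other small differences kept their sign and varied in size. HMGCS1 in Empty ran from -0.12 to -0.0091, and INSIG1 in the interaction from -0.20 to -0.063. Between untreated lines, SQLE ran from 0.031 to 0.078 and SREBF2 from 0.0064 to 0.051.

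Whether libraries with the same replicate number shared a day or culture is not said. Correlations of replicate differences between groups ran from -0.10 to 0.244. Of the 6, 1 was over 0.1, that between the treated groups of both lines (0.244). Such correlations cannot settle whether the libraries were paired. With the replicate block, 3 of the 7 were called in NeuT, 0 in Empty, 2 on average, 0 in the interaction, 4 between untreated and 2 between treated lines, with 593, 66, 780, 1, 7497 and 7453 of all genes. A block with the numbers crossed in treated NeuT, added after seeing the data, called 3 of the 7 and 1 of the 15 in NeuT, and 454 of all genes.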

Other observations

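Genes of fatty acid synthesis, which the related factor SREBP1 is known to govern, were followed in a list of 8. With JG-98 in Empty cells 1 of the 8 passed edgeR's test, where 0.339% of all genes did: ACSS2, which makes acetyl-CoA from acetate in the cytosol, rose. It read 38.9 and 40.3 CPM untreated and 47.5 and 52.4 CPM treated, without overlap (log2 change 0.34, SE 0.070, edgeR adjusted p = 0.0496). That call was lost when any 1 of the 4 Empty or 2 untreated NeuT libraries was left out (edgeR adjusted p from 0.133 to 0.454), with limma-voom (adjusted p = 0.0636), RLE size factors (edgeR adjusted p = 0.0505) or a non-robust fit (edgeR adjusted p = 0.0680). Calls over all genes in Empty ran from 9 to 417 with 1 library left out, against 60. ACACA (-0.22, SE 0.99, edgeR adjusted p = 0.968) and FASN (-0.15, SE 0.075, edgeR adjusted p = 0.561), of fatty acid synthesis proper, did not pass in Empty. In NeuT cells ACSS2 read 45.9 and 46.3 CPM untreated and 47.0 and 50.4 CPM treated, and 0 of the 8 passed there in edgeR, with 3 at an unadjusted p under 0.05 (16.0% of all genes). There 6 of the 8 lay below 0, as did 8836 of the 17693 genes tested, and their median was -0.084. Both treated libraries lay below both untreated ones for 5 of the 8 and above for 1. Of all genes tested, 4050 and 3882 did so. The interaction for ACSS2 was -0.26 (SE 0.098, edgeR adjusted p = 0.561), so the lines were not shown to differ. Averaged over lines ACSS2 was higher by 0.21 (SE 0.049, edgeR adjusted p = 0.0221), a call lost when any 1 untreated library or Empty treated replicate 2 was left out (edgeR adjusted p from 0.0934 to 0.135). Among the other 7, ACACA, the acetyl-CoA carboxylase, had the largest difference of the 8 in NeuT (0.31, SE 0.86, edgeR adjusted p = 0.915), on 241 and 100 counts untreated and 76 and 345 treated, a spread within groups wider than the difference. The desaturase FADS2 stood at -0.21 (edgeR adjusted p = 0.270) and the elongase ELOVL6 at -0.20 (edgeR adjusted p = 0.0780) in NeuT. Between the untreated lines 3 of the 8 were higher in NeuT, where 21.2% of all genes were: ACSS2 by 0.22, the citrate lyase ACLY by 0.15 and FADS1, another desaturase, by 0.45 (SE 0.057, edgeR adjusted p = 5.2e-06), at 91.4 ± 0.21 against 66.7 ± 1.4 CPM (SD, n = 2 libraries each). ACACA differed by 0.97 there (SE 0.92, edgeR adjusted p = 0.472).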
